A study of Mus musculus with 12 samples.

Results

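Promoter-flanking regions were defined as the regions of the deposited H3K27ac table that lie over 1000 and up to 3000 bp from a transcription start site (TSS) on chromosomes 1 to 19. There were 9511 of them among 104981 regions of 500 bp, beside 21502 promoter regions within 1000 bp of a TSS and 71459 distal regions farther away. H3K27ac, acetylation of histone H3 at lysine 27, was measured by chromatin immunoprecipitation and sequencing in microglia (macrophages that live in brain tissue) of mouse cortex, purified by density gradient and cell sorting. All mice were 30 days old and had received either interleukin-33 (IL-33), a cytokine released from damaged or stressed cells, or vehicle into a cerebral ventricle on 1 side 4 h earlier. The labels give no strain, genotype or transgene. Mice 1, 2, 5 and 6 were the 4 males and mice 3, 4, 7 and 8 the 4 females, with 1 library each, and values by mouse are listed in that order. Treatment is not given per mouse, so IL-33 and vehicle libraries were not compared. Any effect of IL-33 is part of the spread within a sex or, if treatment was uneven between the sexes, of their difference. Input libraries of the 4 male mice were not analysed here.

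H3K27ac is deposited by the acetyltransferases p300 and CBP and marks nucleosomes beside active promoters and enhancers. At an active gene the start site itself is depleted of nucleosomes, and the mark sits on the nucleosomes on either side, often reaching into the first intron, where promoter-proximal enhancers can also lie. In microglia and other macrophages, such regions are bound by the lineage factor PU.1 together with other factors. Many promoters lie in CpG islands, stretches rich in the dinucleotide CG that mostly lack DNA methylation.

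The start sites that matter most here are shown by the 250 bases before them, from RefSeq on build GRCm38.p6, 5′ to 3′ on the gene's strand, with each CG in capitals. The first set belongs to genes with a RefSeq start inside a flanking region that was lower in female libraries, namely Tbkbp1 (chr11:97151507-97151756, minus strand), Akap7 (chr10:25297080-25297329, minus strand) and Coq10a (chr10:128368981-128369230, minus strand).
Tbkbp1: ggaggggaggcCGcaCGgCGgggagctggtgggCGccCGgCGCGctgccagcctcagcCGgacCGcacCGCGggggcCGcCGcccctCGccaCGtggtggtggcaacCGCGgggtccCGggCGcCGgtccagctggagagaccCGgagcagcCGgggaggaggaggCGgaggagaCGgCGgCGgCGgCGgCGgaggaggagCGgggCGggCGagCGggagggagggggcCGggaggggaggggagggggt
Akap7: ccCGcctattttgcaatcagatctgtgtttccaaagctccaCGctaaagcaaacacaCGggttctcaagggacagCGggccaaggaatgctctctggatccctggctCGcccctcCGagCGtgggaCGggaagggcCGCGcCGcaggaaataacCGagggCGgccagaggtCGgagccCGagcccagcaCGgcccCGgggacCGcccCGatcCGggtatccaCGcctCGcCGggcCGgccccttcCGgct
Coq10a: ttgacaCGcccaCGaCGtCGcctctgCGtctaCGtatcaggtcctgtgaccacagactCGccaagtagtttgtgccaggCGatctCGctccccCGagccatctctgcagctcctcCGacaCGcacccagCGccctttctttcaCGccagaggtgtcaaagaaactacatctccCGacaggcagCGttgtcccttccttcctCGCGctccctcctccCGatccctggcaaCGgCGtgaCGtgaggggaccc
The second set belongs to 3 genes whose flanking signal was retained in female libraries while the promoter signal was near 0, Erbin (chr13:103920587-103920836, minus strand), Zfp592 (chr7:80993434-80993683, plus strand) and Qk (chr17:10319362-10319611, minus strand).
Erbin: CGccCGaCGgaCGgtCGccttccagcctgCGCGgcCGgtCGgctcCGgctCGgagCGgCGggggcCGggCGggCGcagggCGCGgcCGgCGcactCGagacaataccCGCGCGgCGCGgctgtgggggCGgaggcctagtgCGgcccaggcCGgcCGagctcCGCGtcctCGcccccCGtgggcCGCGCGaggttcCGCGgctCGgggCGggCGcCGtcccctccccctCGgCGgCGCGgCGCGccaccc
Zfp592: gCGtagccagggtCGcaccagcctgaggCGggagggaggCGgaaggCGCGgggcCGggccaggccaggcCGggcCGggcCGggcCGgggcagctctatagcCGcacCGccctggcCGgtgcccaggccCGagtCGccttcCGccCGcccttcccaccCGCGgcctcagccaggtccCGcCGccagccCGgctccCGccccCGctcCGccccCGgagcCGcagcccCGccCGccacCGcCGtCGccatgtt
Qk: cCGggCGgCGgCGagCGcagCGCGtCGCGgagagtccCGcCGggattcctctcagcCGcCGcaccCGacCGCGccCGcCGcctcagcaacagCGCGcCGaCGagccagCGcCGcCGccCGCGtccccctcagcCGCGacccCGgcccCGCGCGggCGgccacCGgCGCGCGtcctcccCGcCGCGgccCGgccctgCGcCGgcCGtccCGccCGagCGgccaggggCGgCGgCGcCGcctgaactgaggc
Nufip2 (chr11:77685889-77686138, plus strand) and Slamf8 (chr1:172590569-172590818, minus strand) are shown for the opposite change of the flank to promoter ratio.
Nufip2: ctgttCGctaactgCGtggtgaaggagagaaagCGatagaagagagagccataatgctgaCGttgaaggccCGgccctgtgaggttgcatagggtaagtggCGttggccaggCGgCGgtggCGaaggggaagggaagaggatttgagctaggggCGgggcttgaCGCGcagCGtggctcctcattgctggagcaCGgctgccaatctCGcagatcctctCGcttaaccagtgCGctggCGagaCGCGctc
Slamf8: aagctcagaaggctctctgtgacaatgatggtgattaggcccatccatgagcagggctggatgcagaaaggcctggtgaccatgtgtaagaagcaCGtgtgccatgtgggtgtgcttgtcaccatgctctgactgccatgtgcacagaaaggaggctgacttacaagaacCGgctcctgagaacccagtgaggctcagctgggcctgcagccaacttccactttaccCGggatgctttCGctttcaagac
The motif CG reads the same on both strands, and 92.1% of 32851 RefSeq windows of this length hold it at least once, with a median of 6. The windows of Erbin, Zfp592 and Qk hold 49, 33 and 52, and those of Tbkbp1, Akap7 and Coq10a 34, 25 and 22. Nufip2 has 20 and Slamf8 4. Among genes not shown, Arid1b (37), Fosl2 (23) and Gm10649 (21) also had a lower ratio, as did Tbkbp1, and Dnmt3a (40) and Ranbp9 (45) a higher one. Arid1b and Tbkbp1 thus hold more than Zfp592. Counts of CG in these windows are a description of chosen genes and no contrast between the directions. Base composition over all genes was not compared because only 72.3% of the genes with both kinds of region had a matching window.

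Flanking regions lay mostly inside genes and mostly downstream of the start. Introns held 5507 of them (57.9%), and the first intron alone 3962 (41.7%). Another 2742 were intergenic, 509 exonic, 394 at a transcription termination site, 218 in a 3′ UTR and 49 in a 5′ UTR. Downstream of the TSS lay 5766 and upstream 3745. The detailed annotation labelled 473 of them as CpG island (4.97%), against 7.77% of promoter and 1.26% of distal regions. It gives 1 label per region, so a region with another label, such as exon, can still lie in an island. These shares therefore count the label and not island membership. Flanking regions belong to 5913 nearest genes, of which 3741 had a single flanking region, 2172 at least 2 and 135 at least 5. The gene name is that of the nearest start site, and the annotation label can come from another transcript, such as exon 33 of 44 for the region at P2ry12. A neighbouring region overlapped 1879 flanking regions and shares reads with them. A minimum mean of 10 scaled tags over the 8 libraries, required for tests across regions, was reached by 5132 (54.0%).

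The mean signal was highest next to the promoter and lower farther out on both sides. Signal is given as tags scaled by the authors to 10000000 per library. The mean per region was 37.8, 32.3, 32.4 and 30.6 tags in the males and 37.2, 49.4, 38.7 and 39.7 in the females. Medians were far lower, between 9.28 and 14.5. From 1000 to 1500 bp downstream the mean was 37.2 tags in male and 45.3 in female libraries, and from 2500 to 3000 bp downstream 30.9 and 38.5. Upstream, the same bins held 36.6 and 45.7 near the start and 28.4 and 34.5 farther out. All 8 libraries had a lower mean in the outermost than in the innermost bin on each side.

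**Figure D1:**
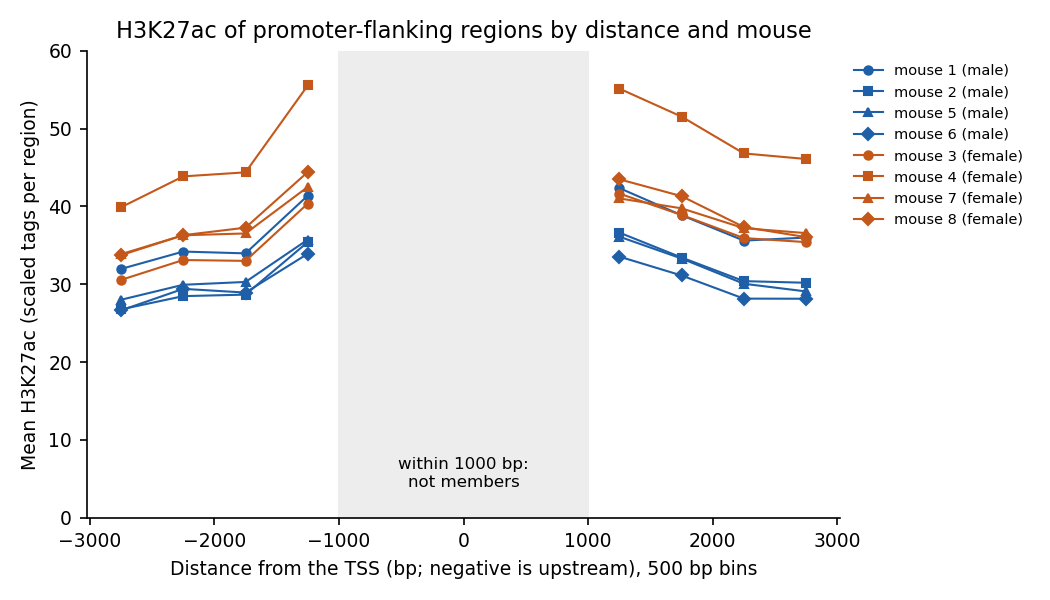
Mean H3K27ac per flanking region (scaled tags, vertical axis) by distance from the TSS in 500 bp bins (horizontal axis, negative values upstream), with 1 line per mouse, male in blue and female in orange. Every library falls from the bins beside the promoter to those 2500 to 3000 bp away, and female mouse 4 is above the other libraries in each bin.

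Levels on either side of the bounds of the definition were close to each other. In the 100 bp just inside the inner bound, 776 regions held 38.9 ± 3.05 tags in males and 48.1 ± 7.12 in females (SD, n = 4 each), against 43.9 ± 3.54 and 52.9 ± 8.09 in the 884 just outside it. Just inside the outer bound, 323 regions held 32.8 ± 3.78 and 41.2 ± 6.27 (SD, n = 4 each), against 33.9 ± 2.96 and 43.1 ± 6.17 in the 353 beyond it. Upstream regions had a mean slightly below that of downstream ones, a log2 ratio of -0.09 that was negative in 8 of 8 mice (exact sign-flip permutation test over mice, two-sided p = 0.0078, the smallest that 8 mice allow). That direction held over all flanking regions and turned to 0.08 among those with a mean of at least 10 tags, and within genes with flanking regions on both sides it was 0.02 (p = 0.172 in the same exact test). By annotation, first-intron regions had means of 35.8 ± 3.73 tags (males) and 44.8 ± 5.89 (females), later introns 30.4 ± 3.28 and 38.9 ± 6.80, exons 28.9 ± 1.76 and 31.5 ± 3.74 (SD, n = 4 each).

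Library totals were 5160915 to 10019606 tags in male and 2155209 to 4133042 in female libraries, and the median flanking region held 5 to 13 reads and 2 to 6 reads. Between 9.75 and 15.7% of the flanking regions held no read in a male library, and between 27.1 and 31.9% in a female one. Sex went together with depth, with the date in the column headers and with single (male) or dual (female) index reads, so these cannot be told apart from sex in any comparison here. Rank correlation between libraries over the flanking regions was 0.79 to 0.91. Of 10 microglial markers, 9 had a flanking region, and their 33 regions summed to 4966 to 6142 tags in male and 6085 to 8722 in female libraries. Markers of 7 other cell types had at most 5 flanking regions per type, so their sums rest on fewer regions. They summed to at most 159 tags in any library (T and B cells, 3 regions of Lck and Ms4a1). At promoters the highest sum of another type was 159 (astrocytes), against at least 2932 for microglia. Neutrophil markers had no flanking region, and the single region of a neuronal marker, Slc17a7, held at most 4.64. The part of other cell types in the results was not tested.

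The flanking regions with the most H3K27ac included several at genes of macrophages and microglia. An intron region 2869 bp downstream of the TSS of Kdm6b, a demethylase of H3K27 (chromosome 11, 69410556 to 69411056 on build mm10), held 569.9, 435, 493 and 589 tags in males and 528, 837, 566 and 552 in females. The ranges of both sexes overlap, and female mouse 4 is far above the rest. A region 2702 bp upstream of Ncf1, a subunit of the phagocyte NADPH oxidase, held 473, 402, 506 and 506 in the male and 452, 711, 655 and 636 in the female mice in the same order. At P2ry12, the purinergic receptor that marks homeostatic microglia, a region 1102 bp downstream held 353, 318, 445 and 411 against 487, 629, 633 and 659. All female libraries lay above all male ones there, a log2 difference of 0.65 (95% interval 0.26 to 1.04) that missed the threshold (limma, adjusted p = 0.0935). Aif1, which encodes the microglial protein IBA1, had 517, 418, 352 and 378 against 475, 736, 426 and 487 tags, with overlapping sexes. The other regions among the 10 highest, 1 per gene, had means over the 8 libraries of 477 at Cflar, 453 at Mybph, 446 at Lpcat2, an enzyme that makes platelet-activating factor, 442 at Anp32a, 439 at Mir22hg and 424 at Fermt3, the integrin activator kindlin-3 of blood cells. None of the 10 passed the test between sexes (limma, adjusted p = 0.0935 to 0.811). Over all tested flanking regions 92 were lower and 387 higher at an unadjusted limma p under 0.05. That balance depended on the scaling, with 145 and 99 after TMM rescaling and 123 and 115 in DESeq2. In limma, 204 of 31183 distal regions were lower and 2810 higher, and of 15811 promoter regions 2416 and 776.

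The authors' peak sets, named in the table for IL-33 and for vehicle, split the flanking regions unevenly. Both sets held 6428 (67.6%), the IL-33 set alone 2366 (24.9%) and the vehicle set alone 717 (7.54%). Among promoter regions the IL-33 set alone held 10.7% and the vehicle set alone 5.56%, and among distal regions 20.5% and 9.98%. The sources used here do not say how the sets were called, and they come from these same libraries, so the shares are a description of the calls and not a test of IL-33. Regions found with IL-33 alone had mean levels of 24.98, 22.0, 16.7 and 16.4 tags in males and 25.7, 33.3, 21.6 and 21.4 in females. Regions found with vehicle alone had 26.6, 24.5, 27.7 and 26.2, and 28.1, 38.2, 34.8 and 35.8.

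Single regions of the IL-33 set differed widely between mice of a sex. The clearest was an intron region 2662 bp upstream of the labelled TSS of Cflar, which encodes the caspase-8 inhibitor c-FLIP (chromosome 1, 58727640 to 58728140). It held 669, 530.3, 175 and 157 tags in males and 801, 1026, 262 and 195 in females. Within each sex 2 mice were high (mice 1 and 2, and mice 3 and 4) and the other two low, so the sexes overlap. A region 2240 bp upstream of Mir22hg, a microRNA host gene, held 513, 402, 263 and 259.6, and 490.0, 944, 357 and 283. Values of C3ar1, the receptor of the complement fragment C3a, and of Csk, an inhibitory kinase of Src family kinases, ran from 283 to 554 and from 248 to 605 in their regions of the IL-33 set. C3ar1 also had a region of the vehicle set, overlapping the other, with 239 to 508 tags. Mybph (318 to 719) and Irf2bp2 (279.9 to 627) were other high regions of the vehicle set, beside Aif1.

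**Figure D2:**
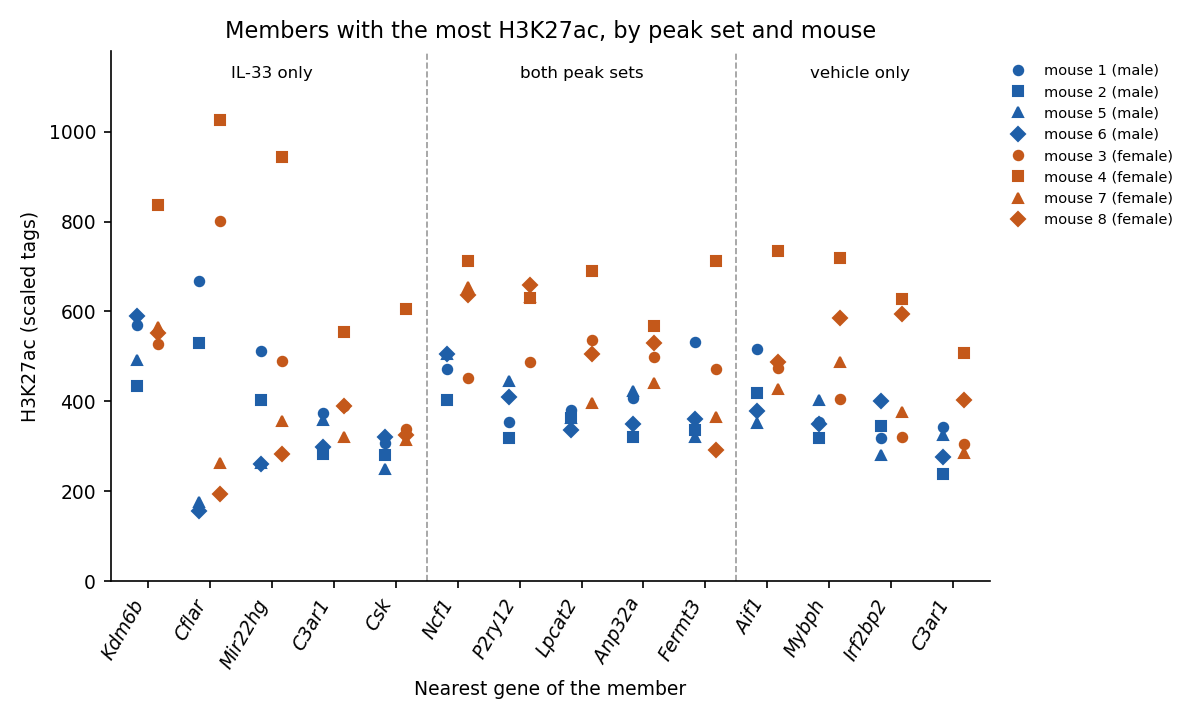
H3K27ac (scaled tags, vertical axis starting at 0) of flanking regions with a high mean, by nearest gene and authors' peak set, with 1 point per mouse, male in blue and female in orange. At Cflar the 8 mice range from 157 to 1026 tags, with 2 high and 2 low mice in each sex, whereas at Ncf1 they lie between 402 and 711.

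No flanking region stands in the authors' deposited table of IL-33 against vehicle, whose title also names ATAC-seq, an assay of open chromatin. Only neighbours could be read there. The neighbours named below lay 3157 to 3392 bp from a TSS and are thus distal regions, not flanking ones. The authors' deposited table gives an adjusted p for a region that overlaps 103 of the flanking regions; 23 of these neighbours rose with IL-33 (22.3%) while 4 fell (3.88%). Among the 40352 regions tested in the authors' deposited table, 10.2% rose and 7.99% fell. By peak set, the authors' deposited table had 11 rising and 0 falling among 28 neighbours of regions found with IL-33 alone, and 0 rising and 1 falling among 11 neighbours of regions found with vehicle alone. Within 1000 bp, the authors' deposited table had 25 rising and 5 falling among 113 neighbours of regions found with IL-33 alone, and 2 rising and 5 falling among 30 of regions found with vehicle alone. The neighbour of the Cflar region had a log2 fold change of 1.53 in the authors' deposited table (adjusted p = 1.21e-14), and that of the Mir22hg region, 920 bp away, 1.06 (adjusted p = 5.97e-07). Neighbours at Kdm6b (0.16), Ncf1 (0.10), Aif1 (0.31) and Mybph (-0.01) passed no threshold in the authors' deposited table. Peak sets and table come from the same libraries, so neither is independent evidence for the other.

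Among 15 lists of genes chosen for microglia and for IL-33 signalling, identity genes had the strongest flanking signal. Of 28 genes of homeostatic microglia, 27 had 98 flanking regions with a median level of 101 tags, against 12.4 over all 9511. Beside P2ry12, the highest were at the transcription factor gene Sall1 (349), at Cst3, which encodes cystatin C (330.4), and at the receptor gene Csf1r (315). The lists of lysosome and cathepsins (52 regions, median 65.3; Lgmn 369, Ctsz 274), of phagocytosis receptors and complement (64 regions, median 64.6; C3ar1 371, C1qb 336, Sirpa 211) and of pattern recognition receptors (29 regions, median 57.3; Cd180 207, Cd14 188) followed. The lineage factor list had 67 regions and a median of 56.9, with Zeb2 at 226, Spi1, which encodes PU.1, at 218, Fli1 at 211 and Runx1 at 189. Only 4 of 15 genes of IL-33 receptor signalling had a flanking region, and none was above 17.5 tags, the level of the kinase gene Irak2. Irak4 stood at 14.7, the IkB kinase gene Chuk at 9.40 and Il33 itself at 2.25.

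Genes of the inflammatory response had many flanking regions in the IL-33 peak set alone. They were 18 of 38 for NF-kB subunits, targets and feedback and 18 of 34 for cytokines and chemokines, against 2366 of all 9511, from the same libraries as the peaks. At Birc3, an NF-kB target that encodes an inhibitor of apoptosis, an intron region 1264 bp downstream of the TSS (chromosome 9, 7871656 to 7872156) held 175, 148, 23.1 and 17.4 tags in males and 217, 356, 44.6 and 18.6 in females. At Zc3h12a, the endoribonuclease that degrades cytokine mRNAs, the values were 227, 164, 27.3 and 79.4, and 220.1, 353, 61.3 and 74.2. The chemokine gene Ccl12 had 216, 151, 64.0 and 79.4, and 302, 469, 86.4 and 83.5. In each of these 3 regions mice 1 and 2 are above mice 5 and 6, and mice 3 and 4 above mice 7 and 8. Il1a, encoding interleukin-1 alpha, had 201, 175, 74.4 and 58.1, and 238, 266, 100.3 and 97.4. The NF-kB subunit gene Rel (mean 225 tags), the inhibitor gene Nfkbie (113), Il1b (133) and Tgfb1 (129), an anti-inflammatory cytokine gene, had smaller gaps between mice.

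Other lists were described by level only. Of the AP-1 and immediate early genes, 23 of 27 had 79 flanking regions (median 18.4), led by Jund (372), Junb (289), Jun (232) and Ier5 (194). The interferon and STAT list had 42 regions (median 17.8), with Irf5 at 342, Irf2 at 206, Il10ra at 161 and Stat6 at 93.4. Disease-associated microglia genes had 31 (median 29.98), with Trem2 at 185, B2m at 105, Cd68 at 102 and Ctsd at 100.1. Chromatin regulators of acetylation had 25 (median 16.5); beside Kdm6b, Ep300, which encodes p300 itself, stood at 53.9. Cholesterol and lipid genes had 26 (median 16.7), with Mylip at 181, Abca1 at 89.3, Abcg1 at 72.1 and Soat1 at 68.9. Glycolysis and hypoxia genes had 29 (median 10.6), with Hk3 at 144, Hk2 at 119, Pkm at 86.0 and Pfkfb3 at 57.4. Cytosolic ribosomal protein genes had 11 regions in 9 of 39 genes (median 10.6), with Rps9 at 99.7, Rps29 at 50.5, Rpl10a at 23.9 and Rps14 at 10.6.

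The comparison of the sexes, the only one the labels allow mouse by mouse, showed more of the region signal in flanking regions in female libraries. Flanking regions held 9.49, 9.46, 9.08 and 8.90% of all tags in regions of chromosomes 1 to 19 in male mice 1, 2, 5 and 6, and 9.87, 10.1, 9.82 and 9.71% in females. The sexes do not overlap, with 9.23 ± 0.288% against 9.87 ± 0.162% (SD, n = 4 each; exact permutation test, two-sided p = 0.0286, the smallest that 4 against 4 allows). Promoters took 40.7 ± 0.61% in male and 34.1 ± 2.04% in female libraries, and distal regions 50.1 ± 0.811% and 56.1 ± 2.14% (p = 0.0286 each by the same exact permutation test). These shares make up all region tags, so a lower share of promoters leaves more for the others, and the tests are not independent. Within genes, the median log2 ratio of flank to promoter was -1.11, -1.03, -1.16 and -1.16 in males and -0.83, -0.88, -0.71 and -0.80 in females, a difference of 0.31 (p = 0.0286, exact permutation test). The flank exceeded the promoter at 17.6 to 18.5% of 2465 start sites with both kinds of region in male and at 25.3 to 28.1% in female libraries.

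Flanking regions labelled as CpG island had a smaller excess over the others in female libraries, while their own levels overlapped between the sexes. Their mean was 68.5, 56.8, 61.1 and 57.8 tags in males and 53.9, 72.9, 49.3 and 55.5 in females, while the 9038 other flanking regions had 36.2, 31.0, 30.9 and 29.2, and 36.3, 48.2, 38.1 and 38.9. The log2 ratio of labelled to other regions was taken only over those with a mean of at least 10 tags, 286 with the label and 4846 without. It was 0.82 ± 0.05 in males and 0.37 ± 0.10 in females (SD, n = 4 each), a difference of -0.44 without overlap (exact permutation test, two-sided p = 0.0286). This comparison was added after the values had been seen, and the others can include regions in islands that carry another label.

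**Figure D3:**
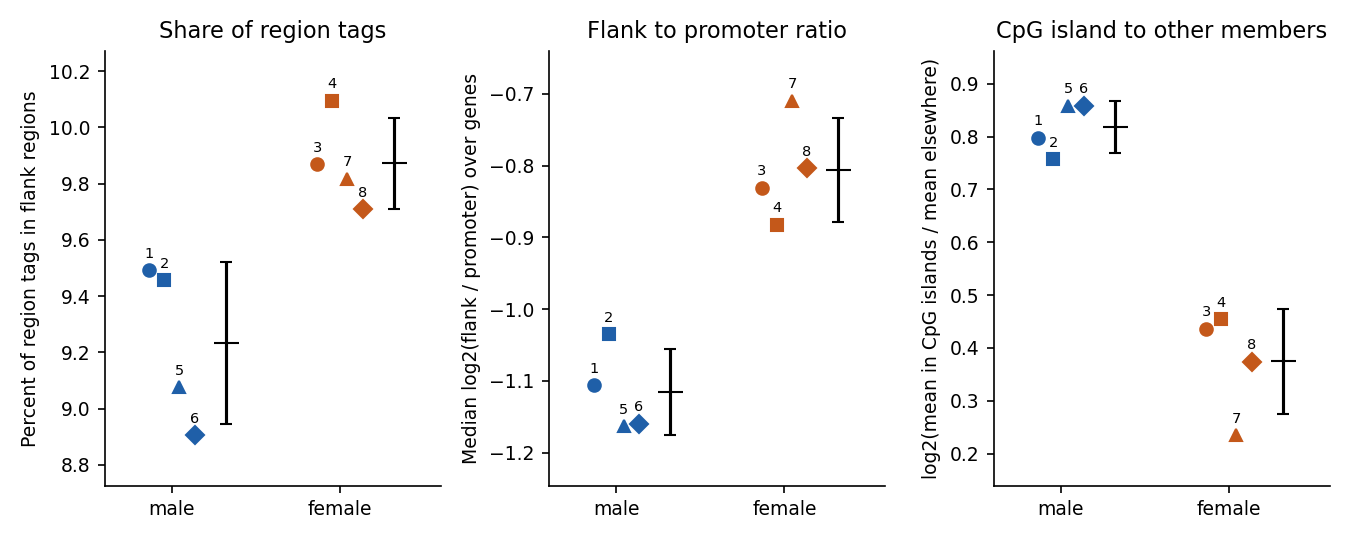
Values per mouse in 3 panels, with the mouse number above each point and the mean ± SD (n = 4) beside each sex. Vertical axes are the percent of region tags in flanking regions and the median log2 ratio of flank to promoter. The third is the log2 ratio of mean tags with the CpG island label to mean tags without it, among regions with a mean of at least 10 tags. No axis starts at 0. Female libraries lie above all male ones in the first 2 panels (9.87 against 9.23%, and -0.81 against -1.12) and below them in the third (0.37 against 0.82).

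Region by region, few flanking regions passed the test between sexes. Fitted with limma on log2(tags + 5) over all 53348 tested regions and called at a Benjamini-Hochberg adjusted p under 0.05, 37 of 5132 flanking regions were lower in female libraries (0.721%) and 9 were higher (0.175%). Over all regions 2.28% were lower and 0.187% higher, among promoters 7.06% and 0.0632%, and among distal regions 0.167% and 0.151%. The lower share of the flanking regions is thus below that of promoters and of all regions, which include the promoters, and above that of distal regions. Their higher share is close to that of all regions. The median log2 difference, female minus male, was 0.24 over tested flanking regions and 0.21 over all tested regions, and it was 0.01 and -0.01 after TMM rescaling, which called 52 lower and 4 higher. Of the 37 lower regions, 22 carried the CpG island label, which is 7.69% of the 286 tested with it against 0.31% of the 4846 without. The 15 without it include 9 labelled as exon, and the exon 1 region of Arid1b among these overlaps a region with the CpG island label. None of the 286 was called higher by limma or edgeR, with 8 higher at an unadjusted p under 0.05. Lower regions were 23 downstream and 14 upstream, 27 of them within 2000 bp, and the sexes did not overlap in any of the 37. Without regard to the test, 71 of the 5132 tested flanking regions had no overlap and a lower female value, and the same was not counted over all regions. Groups of 4 mice that do not differ separate in 1 or the other direction with a probability of 0.0286 per region, so the 71 are no result in themselves. A call survived the omission of each of the 8 libraries in turn at 21 of the 37.

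The lower region with the most negative value on the log2(tags + 5) scale was in intron 1 of Anp32b, a histone chaperone gene (chromosome 4, 46451948 to 46452448, 1272 bp downstream of the TSS, in a CpG island). It held 460.1, 329.9, 258 and 207 tags in males and 26.4, 7.26, 0 and 4.64 in females, or 1102 against 13 reads. Every female library lay below every male one, and the log2 difference was -4.71 (SE 0.47; limma, adjusted p = 8.4e-05). With a pseudocount of 1 tag the difference of Anp32b was -5.66, behind Gm12925 (-6.53) and Tbkbp1 (-6.23), and edgeR and DESeq2 gave the same order of these 3. The region 1684 bp upstream of the labelled TSS of Tbkbp1, an adaptor of the kinase TBK1 (chromosome 11, 97151146 to 97151646), holds the RefSeq start whose upstream bases are shown above. Its values were 107, 82.5, 113 and 120.1 in males against 2.93, 0, 0 and 0 in females, a log2 difference of -4.29 (SE 0.37; limma, adjusted p = 3.1e-05). Near Gm12925, in a region labelled as intron 1 of 92, 306 reads in males stood against none in females (67.9, 97.4, 108 and 96.9 tags against 0). The region was at least 40.5-fold lower over a floor of 3 reads in the 4 female libraries together (limma, adjusted p = 3.3e-05).

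Upstream of Mir17, the start of a microRNA cluster that acts in growth control, 3 separate regions in a CpG island were lower. The one 2120 bp upstream (chromosome 14, 115041301 to 115041801) held 139.7, 139, 77.6 and 116 tags in males and 8.80, 4.84, 0 and 0 in females (log2 difference -3.98; limma, adjusted p = 0.000125). That 1444 bp upstream held 198, 155, 167 and 151 against 11.7, 14.5, 5.57 and 4.64. At Marcks, which encodes an actin-binding substrate of protein kinase C, an exon 2 region 2664 bp downstream had 271, 259, 183 and 229 against 35.2, 21.8, 13.9 and 0 (log2 difference -3.74; limma, adjusted p = 0.000728). Arid1b, a subunit gene of the BAF chromatin remodeller, had 2 lower regions that overlap each other, the first in exon 1 with 193, 164, 149.9 and 182 against 20.5, 31.4, 8.36 and 13.9. Both overlapping regions upstream of Ikzf2, which encodes the transcription factor Helios, were also lower, one with 116 ± 25.5 tags in males and 15.1 ± 11.5 in females (SD, n = 4 each).

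The remaining lower regions were those at Klhl35 (158 ± 56.1 against 9.85 ± 13.3 tags; SD, n = 4), at the kinase gene Tesk1, at the forkhead factor gene Foxp1 and at 22 further genes. They include regulators of transcription and chromatin such as Fosl2, an AP-1 subunit, Bhlhe41, Nr3c1, the glucocorticoid receptor gene, Zbtb7a, Rbpj, the effector of Notch signalling, Chd7, Phip and Mllt10; these were picked from the 37 after their values were seen. Tesk1 lost its call without male mouse 1 (limma, adjusted p = 0.0813), male mouse 2 (0.0861) or female mouse 8 (0.0525), in a range of 0.000262 to 0.104 over all alternatives. Rn45s, the ribosomal RNA precursor, had 2 lower regions (log2 difference -1.39 and -1.37), but its sequence is present in many copies and reads cannot be placed in 1 of them. The regions of Akap7 and Coq10a contain the starts printed above, and held 193 ± 31.3 and 205 ± 45.1 tags in males against 61.9 ± 29.2 and 94.7 ± 29.1 in females (SD, n = 4 each).

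**Figure D4:**
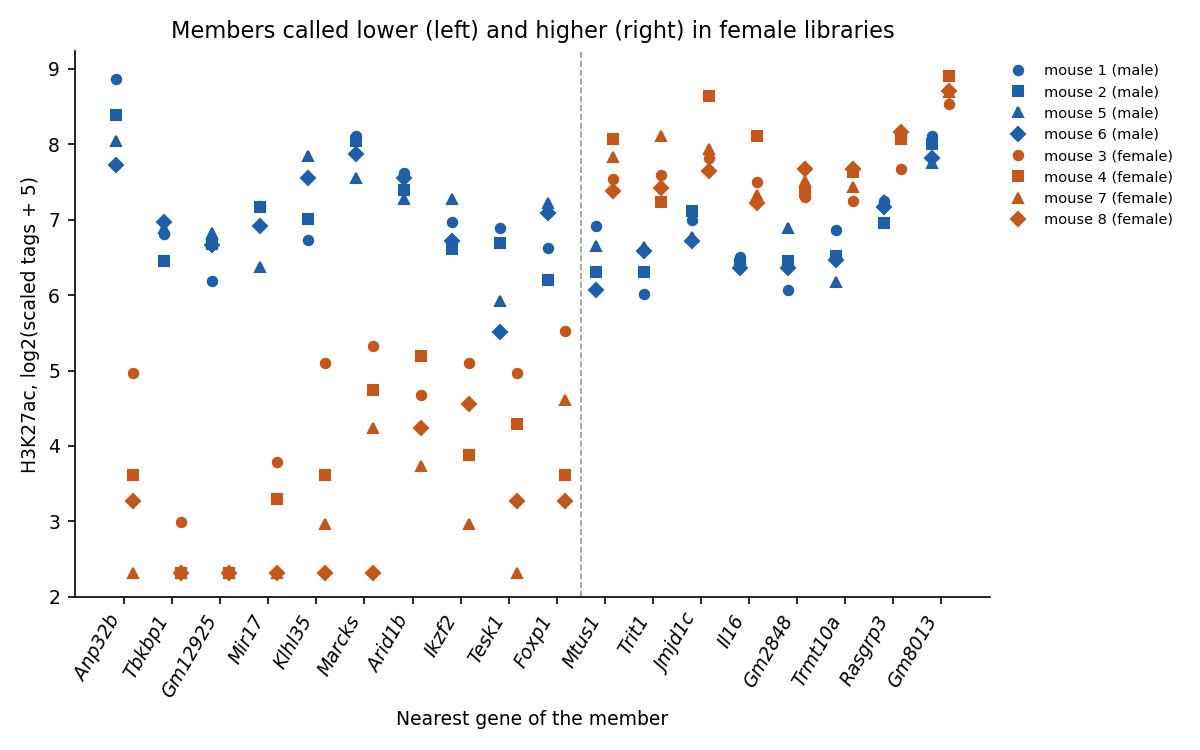
H3K27ac, as log2(scaled tags + 5), of 10 flanking regions called lower and 8 of the 9 called higher in female libraries (left and right of the dashed line), by nearest gene, with 1 point per mouse, male in blue and female in orange. On the left female points reach down to log2(5), a library without reads, and on the right the sexes lie closer together, with log2 differences of 0.79 to 1.22.

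The 9 higher regions changed by less, and none carried the CpG island label. The largest increase was in an intron region 1373 bp upstream of the labelled TSS of Mtus1, a microtubule-associated tumour suppressor gene (chromosome 8, 41055919 to 41056419). It held 116, 74.5, 95.4 and 62.0 tags in males and 182, 264, 223 and 162 in females (log2 difference 1.22, SE 0.26, limma, adjusted p = 0.0193). Il16, a T cell chemoattractant cytokine gene, had 85.8, 80.2, 83.9 and 77.5 against 176, 271, 156 and 144 (1.10; limma, adjusted p = 0.0285). At the demethylase family gene Jmjd1c the values were 123, 134, 104 and 101 against 220.1, 394, 239.7 and 195. Others were at Trit1 and Trmt10a, which encode enzymes that modify transfer RNA, at Rasgrp3, an exchange factor for Ras, and at Gm2848 and Gm8013. The sexes did not overlap in any of the 9, as in 271 of the 5132 tested flanking regions, all with a positive difference. The 271 were counted before TMM rescaling, which brought the median log2 difference from 0.24 to 0.01, and over all tested regions from 0.21 to -0.01. The same was not counted over all regions, so the 271 are no result about flanking regions. The call of each of the 9 was lost in at least 5 of the 8 omissions of a library. Without male mouse 2, male mouse 6 or female mouse 7 no flanking region was called higher by limma, while 227, 248 and 359 had an unadjusted p under 0.05. Without female mouse 3 there were 20.

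Of the 15 lists, only 2 had a called region, both lower, Fosl2 among the AP-1 genes and Bhlhe41 among the lineage factors. In 429 tested regions of all lists limma and edgeR each called 2 lower and 0 higher, with 6 and 46 at an unadjusted p under 0.05 in limma. Over all tested flanking regions the unadjusted counts were 92 and 387, and 145 and 99 after TMM rescaling, which was not counted for the lists. The median log2 difference was 0.36 for homeostatic microglia (94 tested), 0.40 for lineage factors (54), 0.36 for phagocytosis and complement (56), 0.28 for lysosome (45), 0.24 for NF-kB (26), 0.04 for cytokines (25) and 0.01 for AP-1 (51), beside 0.24 over all tested flanking regions.

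At many genes the promoter was lower in female libraries while the flank was not. For each start site with both kinds of region, the log2 ratio of mean flank to mean promoter signal was compared between sexes with limma. Of 2465 start sites (2295 genes), the ratio was higher in female libraries at 183 (7.42%) and lower at 10 (0.406%). At the 183 the median log2 difference was 0.37 for the flank and -1.69 for the promoter, against 0.25 and 0.08 over all 2465. The rank correlation between the flank and the promoter difference was 0.13 across the 2465 sites, which share libraries and are not independent.

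Erbin, a scaffold gene of ERBB2 signalling, showed the largest shift. Its flanking region held 74.8, 57.3, 121 and 54.2 tags in males and 49.9, 70.2, 100.3 and 88.2 in females, whereas its promoter region held 238, 221, 269 and 283 in males and 17.6, 0, 0 and 0 in females. The flank overlaps between sexes and the promoter does not, and the log2 ratio rose by 5.17 (SE 0.62; limma, adjusted p = 0.00108). At Qk, which encodes the RNA-binding protein quaking, the flank had 127, 136, 181 and 196 tags in males and 82.2, 102, 184 and 199.5 in females, and the promoter 283, 274, 231 and 295 against 2.93, 9.68, 0 and 0 (log2 ratio 4.98 higher). Zfp592, a zinc finger gene, had 82.8, 28.6, 43.0 and 36.8 against 20.5, 53.2, 50.2 and 83.5 in the flank and 287, 207, 168 and 149 against 5.87, 0, 0 and 0 at the promoter. Skil, a corepressor gene of SMAD signalling (4.57), Dnmt3a, a de novo DNA methyltransferase gene (4.47), Ranbp9 (4.20), the kinase gene Sgk3 (4.13) and the chromatin gene Arid4a (3.99) followed on the same log2 scale. In all 8 genes the flank differed by less than 1 log2 unit between sexes (-0.24 to 0.82), and the promoter difference was between -5.22 and -3.31.

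**Figure D5:**
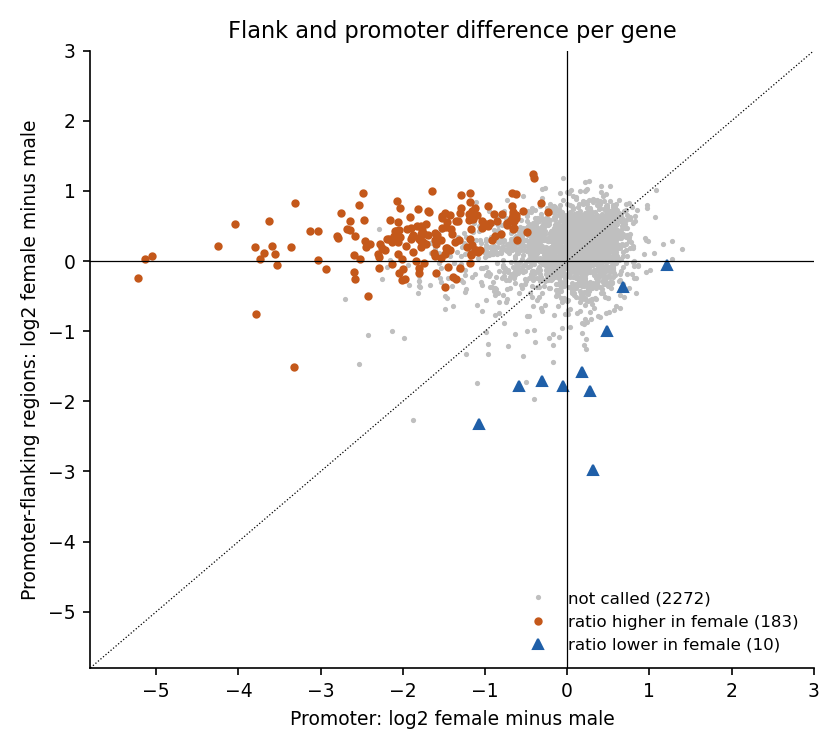
Log2 difference, female minus male, of the promoter (horizontal axis) and of the flanking regions (vertical axis) for 2465 start sites with both, with 1 point per start site; the dotted line marks equal differences. The 183 sites with a higher ratio in female libraries lie above the line, with a median promoter difference of -1.69 and a median flank difference of 0.37, and the 10 with a lower ratio lie below it.

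The ratio was lower at 10 start sites. Tbkbp1 had flank levels of 53.4, 44.7, 60.8 and 65.9 tags in males and 1.46, 3.63, 1.40 and 4.64 in females beside promoter levels of 53.9, 51.0, 68.7 and 69.8, and 64.6, 113, 65.5 and 69.6 (log2 ratio -3.30, SE 0.27). Nufip2, which encodes a partner of the fragile X protein, had 129 ± 21.2 against 40.2 ± 8.10 in the flank and 118 ± 18.01 against 139 ± 47.8 at the promoter (SD, n = 4 each; log2 ratio -1.76). Ikzf2 (-2.13), Gm10649 (-1.73), Slamf8 (-1.47), Fosl2 (-1.41) and Arid1b (-1.26) were next, with lower mean flank levels in females, although the flank of Slamf8 overlapped between the sexes. At Arid1b the promoter was lower as well, with 164 ± 28.3 against 75.7 ± 16.01 tags (SD, n = 4 each). At Lrrc75a (-1.27) the flank held 28.3 ± 5.25 and 27.8 ± 8.78 tags and the promoter 5.78 ± 3.07 and 20.9 ± 10.36 (SD, n = 4 each). The count of 10 was 3 without male mouse 1 or 6, 4 without male mouse 2, 5 without male mouse 5 or female mouse 8 and 19 without female mouse 3.

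Some genes carried most of their proximal signal outside the promoter in both sexes. Over the mean of the 8 mice the ratio was highest at Hexim2, which encodes an inhibitor of the elongation factor P-TEFb, with a log2 ratio of 3.30 ± 0.72 in males and 4.08 ± 0.53 in females (SD, n = 4 each). Kdm6b followed with 3.75 ± 0.41 and 3.602 ± 0.30, 3425401B19Rik with 2.71 ± 0.43 and 3.88 ± 1.17, Anp32a with 2.50 ± 0.25 and 3.77 ± 0.82, and Kat6b, an acetyltransferase gene, with 3.38 ± 0.34 and 2.77 ± 0.26 (SD, n = 4 each). None of these 5 ratios differed between sexes at the threshold (limma, adjusted p = 0.132 to 0.917). At Kdm6b the 5 flanking regions averaged 220 ± 40.1 and 275 ± 104 tags beside a promoter at 12.6 ± 7.52 and 18.2 ± 8.15. The most flanking regions belonged to Csk and to the semaphorin receptor gene Plxnb2, with 10 each, followed by Akna and Mtus1 with 9 and the repressor gene Cic with 8. Those of Csk ranged from 5.25 to 342 tags in mean level and those of Plxnb2 from 49.1 to 226, so that regions of 1 gene differed widely, and across these 5 genes only the Mtus1 region described above was called between sexes.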

How the data were processed

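H3K27ac signal was analysed in 8 libraries, 4 of male and 4 of female mice. Per the file headers, the authors' signal values are tags per region of 500 bp, scaled to 10000000 tags per library, on build mm10. Bowtie2 and HOMER are named in the submitters' processing notes, with versions and settings not given in the sources used here. All values were whole reads within 0.05 reads once divided by what 1 read is worth, so the deposited signal was also tested as reads. The deposited table of IL-33 against vehicle holds the authors' log2 fold changes, p-values and a score for mean level per region, and no header says how they were made. The peak score of the deposited signal table was not used.

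Differences between sexes were fitted with limma 3.58.1 (R 4.3.3) on log2(tags + 5) over all regions with a mean of at least 10 tags, with Benjamini-Hochberg adjustment over all of them and a threshold of 0.05. A fold change on this scale understates the change of low regions. The flank to promoter ratio was the difference of log2(mean tags + 5) per promoter ID and library. Values per mouse were compared with two-sided exact permutation tests, whose smallest p is 0.0286 for 4 against 4 mice. Intervals are 95% intervals from limma. Depth was 2155209 to 10019606 tags per library, and the floor of 3 reads covers counting error only. The labels do not say whether mice were littermates. Every pair of libraries of a sex differed by more than counting error (chi-square over its degrees of freedom, 1.77 to 7.02). On simulated data for the comparison of sexes (53321 regions) the fit recovered 92% of regions changed by -2 and 26% of those changed by -1 on the log2 scale, and 100% and 40% of those changed by 2 and 1. Only flanking regions with a mean of at least 30 tags were changed, a level that 3201 of the 5132 tested reach. The simulated spread between mice was set to 1 value for all regions and held no effect of treatment, so recovery in the real libraries may be lower.

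The regions and lists were chosen with earlier results of these data known. Named were the 10 lower and 10 higher called regions with the largest difference (only 9 were higher), the 10 highest regions, up to 4 genes per list, 8 genes per direction of the ratio, the 5 genes with the most regions, the 5 highest regions of each single peak set and the 5 highest ratios. Alternatives were other pseudocounts, filters and scalings, edgeR 4.0.16 and DESeq2 1.42.0 on whole reads, thinned reads, subsets of regions and the omission of each library. The comparison by CpG island was added after seeing the data. Of the nearest gene names, 99.8% matched RefSeq. A few genes that this rule names are not reported here.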

Additional observations from a re-analysis of the deposited data

Results flagged for a closer look

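In 14 of 232 sets of 4 mice tested, 1 mouse lay far from the other mice of its sex (its gap to the nearest took up nearly all of the range of the 4, by Dixon's 95% limit), where chance gives about 1 in 20. Female mouse 4 was the high one in 6 of these. It held 837.16 tags at Kdm6b against 528 to 566 in the other females, 604.88 at Csk against 315 to 337, 350.83 at Trem2 against 148 to 158 and 186.3 at B2m against 78.0 to 88.0. It also held 365.35 at the phagocytosis checkpoint gene Sirpa against 195 to 199.5 and 525.04 at Ctsz, which encodes cathepsin Z, against 227 to 254. In mouse 4, 47.3% of all tags lay in regions, against 32.9 to 39.6% in the other libraries. Its mean per flanking region was also the highest, so high values were not particular to these genes. Female mouse 3 was low at the receptor gene Csf1r with 217.12 tags against 429 to 455, and the only female with a read at Tbkbp1 (2.93 tags against 0). At low levels, male mouse 1 had 37.93 tags at Irak2 against 9.44 to 11.6, and female mouse 8 had 13.92 at Il33 against 0.

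Among log2 ratios of flank to promoter, female mouse 3 was low at Erbin (1.28 against 3.91 to 4.40) and at Arid4a (0.356 against 3.42 to 3.99). Male mouse 2 was low at Zfp592 (-2.658 against -1.88 to -1.74), and male mouse 6 was high at 3425401B19Rik (3.345 against 2.45 to 2.59). The cause of these differences was not tested.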

How the results depend on the processing

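No paired analysis was possible because male and female mice share no replicate number, and the inputs that share numbers with the male libraries were not analysed here. The 37 lower flanking regions became 61 with DESeq2. They were 21 among regions that overlap no other, 10 among those 2000 to 3000 bp from a TSS and 15 without the CpG island label (added after seeing the data). The 286 tested regions with that label hold the other 22. Omitting a library gave 24 (without male mouse 5) to 44 (without female mouse 3). DESeq2 shared all 37 and edgeR 35, whereas no filter called 27, of which 19 were among the 37. The 9 higher regions became 0 with no filter (462 at an unadjusted p under 0.05 in limma; edgeR was run with the filter only), 4 with TMM, 4 with quantile normalisation, 5 with edgeR, 4 without overlaps and 2 at 2000 to 3000 bp, and 0 to 20 when a library was omitted. The 10 lower ratios became 5 at a mean of at least 30 tags and 3 to 19 with a library omitted, and the 183 higher ratios 120 (without male mouse 1) to 254. The upstream to downstream log2 ratio reversed to 0.0826 at a mean of at least 10 tags and to 0.0164 within genes with both, and stayed at -0.0934 to -0.0771 with a library omitted; the cause was not tested. With a library omitted, the difference in flanking share was 0.5305 to 0.726, that in the median ratio 0.281 to 0.3401 and that by CpG island -0.4701 to -0.3967; 4 against 3 mice cannot go below p = 0.0571 in the exact test. Of the named lower regions, 4 of 90 values under other settings and 3 of 80 with a library omitted lost the call, and of the higher ones 30 of 81 and 54 of 72. The 8 named higher ratios kept theirs in all 48 and 64, and the named lower ones lost it in 10 of 42 and 30 of 64. Depth limits the female libraries most, with a median of 2 to 6 reads per flanking region.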

Other observations

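Treatment is not given per mouse, so the following values are listed by mouse, without groups. In mice 1 to 8 in order, the Cflar region held 669, 530.3, 801, 1026, 175, 157, 262 and 195 tags, so that no value lies between 262 and 530.3. The Birc3 region held 175, 148, 217, 356, 23.1, 17.4, 44.6 and 18.6, with none between 44.6 and 148. The Zc3h12a region held 227, 164, 220.1, 353, 27.3, 79.4, 61.3 and 74.2, and the Ccl12 region 216, 151, 302, 469, 64.0, 79.4, 86.4 and 83.5, with gaps from 79.4 to 164 and from 86.4 to 151. At Il1a the values were 201, 175, 238, 266, 74.4, 58.1, 100.3 and 97.4. These genes were picked after their values were seen.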
